A study of Mus musculus with 76 samples.

Results

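Loss of DIS3 was followed in S2 cells, an erythroid fraction of the mouse fetal liver, by comparing 6 of the 76 libraries of the series, 3 from knockout (KO) embryos and 3 from wild-type (WT) embryos of the DIS3 line. The libraries were chosen by their labels. All came from C57BL/6NJ embryos at embryonic day 14.5, and the cells were sorted on CD71 and Ter119 into the fraction called S2. Stranded total RNA depleted of ribosomal RNA was sequenced. The labels give neither the allele, the promoter or Cre that removes DIS3, the sex of the embryos, nor whether replicates came from separate animals, so p-values measure only the spread between these samples. The series was set up to find genes and non-coding RNAs that depend on DIS3 and EXOSC10 as red cells mature, and it also holds other sorted fractions and an EXOSC10 line. From these, S1 and S3 of the DIS3 line and S2 of the EXOSC10 line, each with its own WT group, served for comparison.

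DIS3 is a catalytic subunit of the RNA exosome, a ring-shaped complex that trims or degrades RNA from the 3′ end. In the nucleus the exosome removes short-lived transcripts made from the opposite side of active promoters, by-products of splicing and excess precursors of small RNAs, and helicases and adaptor proteins bring it these substrates. Erythroblasts of the fetal liver gain transferrin receptor (Tfrc, CD71) and then glycophorin-associated Ter119 as they mature, while they divide, load iron into heme and shut down progenitor genes.

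Replicates 1 and 3 of each genotype differed by less than separate samples do. Their chi-square statistic per degree of freedom over genes was 1.095 in WT and 1.077 in KO, against 4.657 to 16.686 for every pair with replicate 2. Each such pair was added up and treated as 1 sample, so that each genotype had 2. Values below are CPM (counts scaled to library size, with TMM factors) in the summed WT sample, WT replicate 2, the summed KO sample and KO replicate 2, in that order, and ± after a log2 difference is its standard error. The libraries held 14.37 M to 16.25 M counts. KO replicate 2 stood apart: the predicted genes Gm26917 and Gm42418 took 61.4% of its counts and 32.7% to 38.2% of those of the other 5 libraries, which left it 5.57 M counts. Counts of changed genes are therefore also given without it. A gene was called changed at an adjusted p under 0.05.

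Sex-linked RNAs separated the genotypes. Kdm5d, a Y-linked histone demethylase, was at 19.3 and 21.6 CPM in WT samples and had no count in KO, at least 283-fold lower with 3 counts over the group as the floor. Ddx3y, an RNA helicase, and Eif2s3y, a translation initiation factor subunit, were at 33.9, 34.7, 0.0306 and 0.101 CPM and at 29.6, 29.3, 0.0611 and 0 CPM. Uty, a demethylase paralogue, was at 39.3, 44.1, 0.214 and 0 CPM. Xist, the RNA that coats the inactive X chromosome, was at 741, 962, 3414 and 2391 CPM, higher in KO by 1.77 ± 0.21 (adjusted p = 0.00105). The WT samples thus held both Y-linked RNA and Xist, and the KO samples had a higher level of Xist with Y-linked RNA at or near 0. Genotype and the sex makeup of the samples cannot be told apart. X-linked genes were called higher and lower at shares not above the 10.3% and 4.80% of all tested genes. Of 489 X-linked genes tested, 35 were higher and 22 lower in KO, against 72 and 64 without KO replicate 2, 69 and 139 without the summed KO sample, 16 and 8 without the summed WT sample, and 21 and 16 without WT replicate 2. Mid1, a ubiquitin ligase whose gene reaches into the pseudoautosomal region in this strain, was at 9.51, 14.5, 0.978 and 1.42 CPM (log2 -3.40 ± 0.33, adjusted p = 4.0e-04). In S2 of the EXOSC10 line Xist did not differ between genotypes beyond its error (log2 0.02, adjusted p = 0.88).

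The targeted gene and the erythroid markers Tfrc and Slc4a1, of which Tfrc encodes the CD71 used in sorting, were examined next. Dis3 was at 52.3 and 48.3 CPM in the WT samples against 33.3 and 27.0 CPM in KO. The groups did not overlap, and Dis3 was lower in KO by -0.73 ± 0.15 on the log2 scale (adjusted p = 0.0127). Reads thus remained on the gene, which overlaps Pibf1 on the other strand, and the deleted part is not given in the labels. Leaving out the summed WT sample ended the call (adjusted p = 0.165). Exosc10, the other nuclear exosome ribonuclease, was at 69.1, 66.0, 68.1 and 80.3 CPM and was not called (adjusted p = 0.56). Tfrc was at 1439, 1464, 1401 and 1246 CPM and was not called (adjusted p = 0.56). Slc4a1, the band 3 anion exchanger, was at 1255, 1356, 1878 and 1699 CPM, higher in both KO samples but not called (log2 0.45 ± 0.14, adjusted p = 0.0625). In WT, scaled over all fractions, Slc4a1 went from 130 and 112 CPM in S1 through 1259 and 1353 in S2 to 23332 and 20036 in S3, and Tfrc from 810 and 830 through 1443 and 1460 to 5069 and 5032. Both markers of the fraction were thus abundant, at levels between those of its neighbours.

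**Figure D1:**
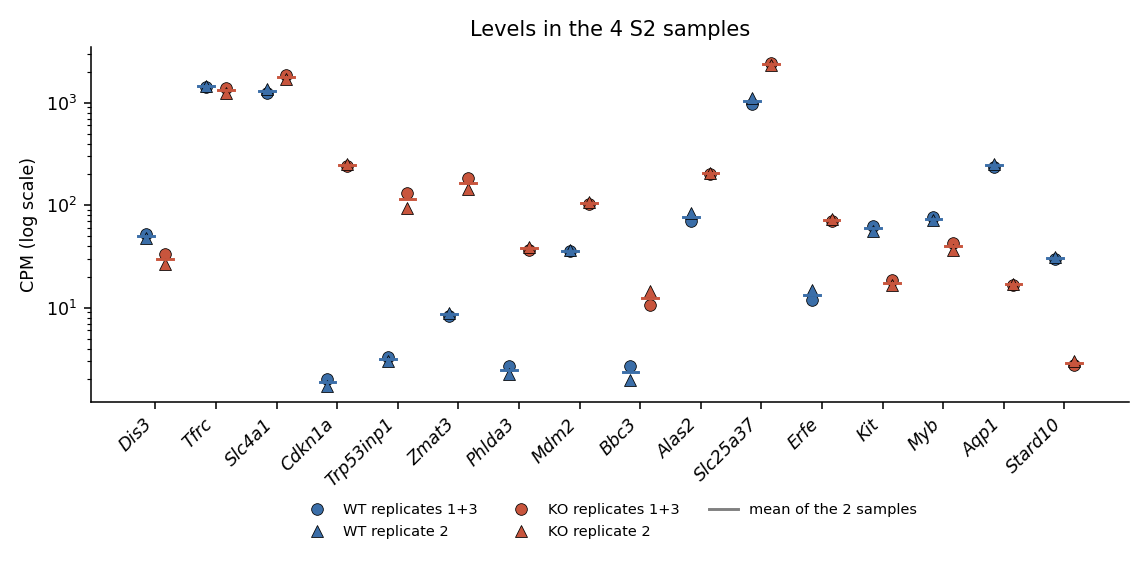
CPM on a log axis of 16 genes in the 4 S2 samples, with circles for the summed replicates 1 and 3, triangles for replicate 2, blue for WT, red for KO and bars for the mean of the 2 samples. The 6 p53 targets from Cdkn1a to Bbc3 lie higher in KO and Aqp1 and Stard10 lower, and Tfrc lies within a narrow range in all 4 samples.

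Of 14035 genes tested, 1445 were higher (10.3%) and 673 lower (4.80%) in KO than in WT, 15.1% in all. Without KO replicate 2 the counts were 2526 and 1929, and without the summed KO sample 3037 and 2861. Without the summed WT sample they were 705 and 167, and without WT replicate 2 they were 927 and 300. The share of higher genes among those called was 68.2%, and 41.7% when all sorted samples of the DIS3 line were fitted together, a fit in which the median of all genes lay at -0.107.

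Genes activated by p53, the transcription factor that answers stress and DNA damage, were among those that rose. Of 27 arrest and feedback targets tested, 17 rose and none fell, with a median log2 difference of 1.53 against -0.00 over all tested genes (19 rose and none fell without KO replicate 2, and 13 and none without the summed WT sample). Cdkn1a, which encodes the cyclin-dependent kinase inhibitor p21, was at 2.02 and 1.74 CPM in the WT samples against 242 and 255 CPM in KO (log2 7.01 ± 0.17, adjusted p = 9.8e-07). The KO values were close to each other and far above both WT values. Zmat3, an RNA-binding target, was at 8.25, 8.96, 185 and 144 CPM (log2 4.27 ± 0.17, adjusted p = 9.1e-06). Trp53inp1, which acts in p53 feedback and autophagy, was at 3.28, 2.99, 133 and 94.8 CPM (log2 5.17 ± 0.22, adjusted p = 1.0e-05). Phlda3, an inhibitor of Akt, was at 2.71, 2.24, 36.5 and 39.5 CPM (log2 3.91 ± 0.18, adjusted p = 1.5e-05). In each of these the gap between the groups was larger than the spread within a genotype.

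The kinase gene Plk2 rose from 0.315 and 0.249 to 21.9 and 15.9 CPM, and the spindle gene Psrc1 from 23.7 and 22.7 to 107 and 91.4 CPM. The nucleotide kinase gene Ak1 rose by 4.18 ± 0.29 and the cyclin gene Ccng1 by 2.17 ± 0.17. Mdm2, the ubiquitin ligase that limits p53, was at 35.8, 36.5, 102 and 107 CPM (log2 1.53 ± 0.12, adjusted p = 1.6e-04). Trp53cor1 (lincRNA-p21), which lies beside Cdkn1a, had no count in WT and 6.91 and 8.01 CPM in KO, at least 129-fold higher. The cytokine gene Gdf15 likewise went from no count to 0.795 and 1.32 CPM, at least 16.5-fold higher. Smaller rises were called in Sesn2 (1.54 ± 0.14), the polymerase gene Polk (1.74 ± 0.17), Gtse1 (0.94 ± 0.13) and Btg2 (0.78 ± 0.14). Trp53 itself was at 88.5, 85.1, 99.2 and 95.4 CPM and was not called (log2 0.16, adjusted p = 0.39).

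Among 14 p53 targets that act in cell death, 10 rose and none fell, with a median of 1.69 (10 rose and 1 fell without KO replicate 2). Eda2r, a receptor of the tumour necrosis factor family, was at 0.552, 0.311, 33.0 and 20.2 CPM (log2 5.82 ± 0.36, adjusted p = 4.7e-05). Tnfrsf10b, the mouse death receptor for TRAIL, was at 0.499, 0.311, 14.9 and 10.6 CPM (log2 4.88 ± 0.33). Fas had no count in WT and 3.03 and 3.55 CPM in KO, at least 56.8-fold higher. These receptors were nearly silent in WT. The nuclease gene Aen was at 33.2, 30.9, 89.9 and 120 CPM. Of the inner pathway, Bbc3 (PUMA) was at 2.73, 1.99, 10.7 and 14.4 CPM and Bax, a pore-forming effector, at 30.5, 31.4, 67.5 and 96.5 CPM. Pmaip1 (NOXA) rose by 2.45 ± 0.30, Apaf1, the scaffold of the apoptosome, by 0.84 ± 0.12 and Pidd1 by 0.83 ± 0.13.

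In the rest of the Bcl2 family, 2 of 12 tested members rose and 2 fell, and leaving out either WT sample left 1 that rose and none that fell. The survival gene Bcl2l1 (Bcl-xL) was at 30.1, 33.1, 52.6 and 62.4 CPM (log2 0.86 ± 0.14) and Bcl2l2 rose by 1.04 ± 0.19. The death-promoting gene Bcl2l11 (BIM) was at 47.5, 47.6, 34.6 and 31.2 CPM (log2 -0.52 ± 0.13) and Bnip3 fell by 0.94 on the same scale (adjusted p = 0.0492).

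The promoter of Cdkn1a is shown because the match to a p53 site lies in it. RefSeq gives 1 of the starts of Cdkn1a with the window chr17:29090729-29091028 on the plus strand of GRCm38.p6, 250 bases before to 50 after the start. The motif CATGNNNNNNCATG, the core of a p53 site, which reads the same on both strands, is in capitals.
Cdkn1a: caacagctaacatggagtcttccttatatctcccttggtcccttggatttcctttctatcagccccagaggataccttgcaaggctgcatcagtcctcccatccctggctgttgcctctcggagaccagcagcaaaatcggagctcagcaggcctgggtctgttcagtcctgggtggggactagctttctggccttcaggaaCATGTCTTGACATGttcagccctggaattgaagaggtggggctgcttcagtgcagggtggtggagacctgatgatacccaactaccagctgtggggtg
The motif was found in the windows of 1 of the 21 arrest and feedback targets with a window in the table, Cdkn1a itself, and of 0 of the 12 death targets. Over all 27025 genes with a window, 0.833% held it. A match describes these letters only.

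The other coding genes with the largest rises were mostly near silence in WT. Tmtc1, an enzyme that adds mannose to proteins, was at 0.473, 0.685, 45.9 and 42.6 CPM (log2 6.34 ± 0.23, adjusted p = 4.7e-06). Gpx3, a secreted glutathione peroxidase, was at 0.998, 1.12, 55.6 and 59.1 CPM (log2 5.78 ± 0.18, adjusted p = 3.7e-06). Neither gene showed overlap between the groups. Fat1, a giant cadherin, was at 0.184, 0.124, 16.3 and 15.3 CPM, and Dglucy, a D-glutamate cyclase, at 0.210, 0.124, 18.5 and 15.6 CPM. B430305J03Rik was at 0.236, 0.560, 29.5 and 27.7 CPM. The aminotransferase-like gene Got1l1 (0.131, 0, 9.57 and 15.6 CPM) and Cd80, a ligand that costimulates T cells (0.158, 0, 12.7 and 15.2 CPM), showed the same pattern. Prrg4, a membrane protein with a Gla domain, had 3 counts in WT and 17.7 and 8.72 CPM in KO, a ratio of 282 with a 95% counting interval of 96.0 to 1370.

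Of the 12 coding genes with the largest falls, 4 were Y-linked and 1 was Mid1. Aqp1, the water channel of the red cell membrane, was at 237 and 253 CPM in the WT samples against 16.8 and 17.2 CPM in KO (log2 -3.85 ± 0.13, adjusted p = 4.7e-06). Its replicates were almost equal within each genotype. Tns1, a tensin of cell adhesions, was at 175, 187, 18.2 and 25.5 CPM (log2 -3.07 ± 0.18) and Stard10, a phospholipid transfer protein, at 30.1, 31.6, 2.75 and 3.04 CPM (log2 -3.43 ± 0.18). Muc6, a gel-forming mucin, was at 46.3, 62.2, 6.17 and 8.82 CPM, and Sh3pxd2a, a scaffold of podosomes, at 12.9, 13.4, 1.89 and 2.03 CPM. The lipid flippase gene Atp8b4 was at 13.5, 10.8, 1.13 and 2.33 CPM. Mpo, the myeloperoxidase of granulocyte precursors, was at 127, 83.2, 9.32 and 14.6 CPM and belongs with the other cell markers given further on.

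Erythroid genes moved in both directions. Over all tested genes 10.3% were called higher and 4.80% lower, and the shares for iron handling were near these. In heme synthesis 4 of 19 tested genes rose and 1 fell, with a median of 0.21. The counts were 7 and 3 without KO replicate 2, 9 and 3 without the summed KO sample, and 2 and 0 when either WT sample was left out. Alas2, the erythroid form of the first enzyme of the pathway, was at 70.7, 84.1, 202 and 206 CPM (log2 1.40 ± 0.13, adjusted p = 3.4e-04), whereas its widely expressed counterpart Alas1 was at 15.4, 14.7, 7.76 and 10.7 CPM (log2 -0.73 ± 0.20, adjusted p = 0.0466). Slc25a37 (mitoferrin), which carries iron into mitochondria, was at 965, 1123, 2416 and 2359 CPM (log2 1.19 ± 0.14, adjusted p = 0.00112). The KO values of Alas2 and Slc25a37 lay well above both WT values. Fech, the enzyme that inserts iron, was at 392, 408, 558 and 513 CPM and was not called (adjusted p = 0.0548). Of 19 genes of iron handling 2 rose and 1 fell, against 3 and 4 without KO replicate 2, 4 and 5 without the summed KO sample, and 1 and 0 when either WT sample was left out. Erfe, the erythroblast hormone that lowers hepcidin, was at 11.9, 14.8, 70.4 and 73.3 CPM (log2 2.44 ± 0.15, adjusted p = 5.0e-05), and the ferritin gene Ftl1 rose by 0.54 ± 0.13.

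Of 31 genes of the red cell membrane and its skeleton 6 rose and 3 fell, with a median of 0.20. The counts were 14 and 5 without KO replicate 2, 12 and 8 without the summed KO sample, 2 and 2 without the summed WT sample, and 3 and 2 without WT replicate 2. Mpp1, a membrane scaffold, was at 65.8, 61.0, 194 and 171 CPM (log2 1.52 ± 0.13), the glucose transporter gene Slc2a1 at 66.6, 75.3, 135 and 166 CPM (log2 1.08 ± 0.14) and the spectrin gene Sptb at 896, 898, 1180 and 1571 CPM (log2 0.62 ± 0.16, adjusted p = 0.0386). In each the KO samples were both above the WT samples. Globin genes had few counts in these libraries. Hbb-bs, an adult beta globin, was at 20, 17.2, 35.2 and 27.4 CPM (log2 0.76 ± 0.17, adjusted p = 0.0209), and the near-identical Hbb-bt at 20.5, 17.3, 36.7 and 9.93 CPM was not called, with KO samples on both sides of WT. Reads of such copies may be split between them. Hba-a1 was at 0.394, 0.498, 1.86 and 1.22 CPM and the embryonic Hbb-y at 1.16, 0.498, 0.0306 and 0.203 CPM.

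Of 14 stem and progenitor genes tested, 3 fell, none rose and 11 were not called, with a median of -0.52. The number that fell was 8 without KO replicate 2, 7 without the summed KO sample and 2 without the summed WT sample. Kit, the stem cell factor receptor, was at 62.2, 56.6, 18.6 and 16.5 CPM (log2 -1.75 ± 0.14, adjusted p = 1.6e-04), Myb, a transcription factor of progenitors, at 76.6, 71.2, 42.9 and 36.3 CPM (log2 -0.89 ± 0.14) and the surface marker Cd34 at 3.49, 2.61, 1.22 and 0.507 CPM (log2 -1.67 ± 0.43). Of 23 erythroid regulators 3 rose and 2 fell, against 5 and 5 without KO replicate 2, 7 and 6 without the summed KO sample, 1 and 0 without the summed WT sample, and 0 and 1 without WT replicate 2. Nfe2, an activator of globin genes, was at 49.9, 43.9, 88.8 and 78.8 CPM (log2 0.84 ± 0.13), Foxo3 rose by 0.52 ± 0.12 and Lyl1 by 0.46 ± 0.12. Jak2, the kinase of the erythropoietin receptor, was at 96.8, 87.4, 59.2 and 41.2 CPM (log2 -0.86 ± 0.18) and Stat5a, which it activates, fell by 0.48 on that scale. The master regulators Gata1 (197, 194, 232 and 224 CPM), Klf1 (201, 174, 158 and 205 CPM) and Tal1 (345, 352, 443 and 479 CPM) were not called. The median of the 23 regulators was -0.03. Their shares called higher and lower were not clearly above the 10.3% and 4.80% of all tested genes.

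A stage index placed the samples along maturation. It is the mean log2(CPM + 1) of 100 coding genes highest in S3 over S1 minus that of the 100 lowest, chosen in WT samples of the EXOSC10 line, so that no DIS3 sample chose its genes. The index was 0.75 and 0.92 in WT S2 and 1.93 and 1.81 in KO S2, with no overlap. In the DIS3 line it was -1.83 and -1.60 in WT S1, -0.10 and -0.26 in KO S1, 6.41 and 6.36 in WT S3 and 6.41 and 6.37 in KO S3. In S2 of the EXOSC10 line, whose WT S1 and S3 samples chose the genes, it was 0.57 and 0.59 in WT and 1.83 and 1.65 in KO. Of 99 late genes tested in S2, 43 rose and 3 fell, and of 100 early genes 40 fell and 9 rose. The late mean was 4.45 and 4.51 in WT S2 and 5.01 and 5.02 in KO S2. The early mean was 3.70 and 3.59 in WT S2 and 3.08 and 3.20 in KO S2. A later average stage within the sorted fraction and a change in RNA per cell cannot be told apart in bulk samples. The index genes were not limited to erythroid cells, and the part of other cells in the index was not tested.

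**Figure D2:**
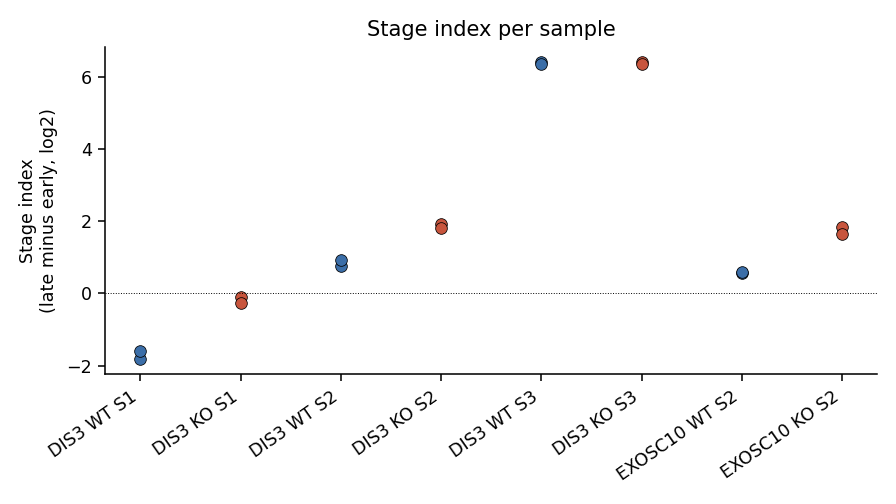
Stage index of each sample (mean log2 CPM of 100 late genes minus 100 early genes) by line, genotype and fraction, with 1 point per sample, blue for WT and red for KO. KO S2 samples lie at 1.81 to 1.93, above WT S2 at 0.75 to 0.92 and far below S3.

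Few cell cycle genes were called, but most lay lower in KO. Of 29 genes of S phase 2 fell and none rose, a share near the 4.80% of all tested genes called lower. Only 2 of the 29 lay above 0 on the log2 scale (median -0.27), against 7008 of 14035 genes tested. The number that fell was 17 without KO replicate 2, 12 without the summed KO sample, 0 without the summed WT sample and 1 without WT replicate 2. The 2 called genes were Pcna and Orc6. Pcna, the replication clamp, was at 363, 318, 235 and 190 CPM (log2 -0.68 ± 0.15). Orc6, a subunit of the origin complex, was at 52.3, 52.0, 40.1 and 34.0 CPM (log2 -0.49 ± 0.14). Of 28 genes of G2 and mitosis (median -0.28, 4 above 0) 6 fell, a share above the 4.80% of all tested genes, and 1 rose. The counts were 14 and 2 without KO replicate 2, 15 and 2 without the summed KO sample, 0 and 0 without the summed WT sample, and 2 and 0 without WT replicate 2. Ccnb2 was at 98.8, 87.2, 62.4 and 44.9 CPM, Cdk1 at 103, 99.0, 73.5 and 63.9 CPM and Ube2c, the gene that rose, at 27.8, 26.1, 45.5 and 36.2 CPM. Ccnd2, a cyclin of G1, was at 132, 123, 348 and 267 CPM (log2 1.27 ± 0.15, adjusted p = 0.00105). Of 25 genes of DNA repair (median -0.22, 1 above 0) 4 fell, also a share above 4.80%, and none rose. The number that fell was 15 without KO replicate 2, 11 without the summed KO sample, 0 without the summed WT sample and 1 without WT replicate 2. Among the 4 were Brca2 (151, 147, 87.2 and 89.5 CPM), Brca1 (126, 129, 87.6 and 86.7 CPM) and Bard1 (147, 151, 107 and 93.0 CPM).

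Of 54 core histone genes 11 fell and 1 rose, with a median of -0.41. The counts were 30 and 2 without KO replicate 2, 26 and 3 without the summed KO sample, and 1 and 1 without the summed WT sample. Hist1h4d was at 139, 126, 66.9 and 75.4 CPM and Hist1h2bf at 25.8, 22.2, 13.1 and 14.3 CPM. Histone genes are near-identical copies, so single members are uncertain. The exception that rose, Hist2h2be, was at 12.3, 12.4, 58.9 and 51.6 CPM (log2 2.16 ± 0.14, adjusted p = 6.3e-05). Of 20 genes of the integrated stress response 3 rose and none fell, against 6 and 0 without KO replicate 2, 6 and 3 without the summed KO sample, and 2 and 0 when either WT sample was left out. Ddit4 (REDD1), an inhibitor of mTOR signalling and also a known p53 target, was at 1.21, 1.06, 29.2 and 27.6 CPM (log2 4.62 ± 0.20, adjusted p = 1.1e-05), Trib3 at 2.29, 1.99, 7.52 and 6.69 CPM and Mthfd2 at 109, 98.5, 200 and 149 CPM. Atf4, the central factor of that response, was not called (189, 165, 185 and 226 CPM). The median of the 20 genes was 0.05, and the share that rose was not clearly above the 10.3% of all tested genes called higher. Of 11 interferon-stimulated genes tested 4 fell and none rose, and leaving out either WT sample left 1 that fell. The 4 were Cmpk2 (17.5, 17.2, 5.35 and 6.49 CPM), Rsad2 (1.68, 1.80, 0.306 and 0.304 CPM), Ifit2 (8.09, 7.78, 4.43 and 3.04 CPM) and Usp18 (1.5, 1.56, 0.275 and 0.507 CPM).

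None of 36 ribosome biogenesis factors was called by edgeR or by DESeq2. Without the summed KO sample 8 rose and 5 fell, and without KO replicate 2, 1 rose. Of 83 ribosomal protein genes 1 rose, Rplp0 (507, 491, 689 and 687 CPM), and 1 fell, Rpl39 (91.5, 83.6, 58.9 and 34.6 CPM). These counts were 24 and 12 without the summed KO sample, 7 and 3 without KO replicate 2, and 0 and 0 without the summed WT sample. Among 30 genes of the exosome, its cofactors and helicases, Zfc3h1, the partner of the helicase that feeds polyadenylated nuclear RNA to the exosome, rose from 103 and 108 to 173 and 186 CPM (log2 0.77 ± 0.12, adjusted p = 0.00348). Tent4a, a non-canonical poly(A) polymerase, fell from 38.1 and 44.0 to 29.8 and 26.6 CPM, and Dis3 was the third called gene. The share called was below the 15.1% of all tested genes. None of the 30 was called without the summed WT sample, while 4 rose and 7 fell without the summed KO sample.

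Many long non-coding RNAs (lncRNAs) rose. Of 882 that passed the filter on low counts, of 7763 in the files, 363 were higher and 6 lower in KO, with a median of 1.17, against 888 higher and 639 lower of 10809 coding genes with a median of -0.04. Without KO replicate 2 the lncRNA counts were 542 and 28, and without the summed KO sample 424 and 23. They were 219 and 0 without the summed WT sample and 273 and 2 without WT replicate 2. Divergent lncRNAs here are those that start within 1000 bases of the start of a coding gene on the other strand. Transcription away from that gene was not required, so the class also holds RNAs that overlap it, such as Gm37305. Of 355 in this class that were tested, of 1169 in the files, 203 were higher and 1 lower, with a median of 1.78. The counts were 291 and 4 without KO replicate 2, 212 and 5 without the summed KO sample, 124 and 0 without the summed WT sample, and 150 and 0 without WT replicate 2. The other 527 lncRNAs gave 160 higher and 5 lower, with a median of 0.60. The divergent ones were sparse in WT, with a median of 0.628 CPM for the 203 that rose and of 4.26 CPM in KO, and 126 of the 203 were under 1 CPM in WT. Those could pass the filter on low counts through their KO values, so the count is of RNAs that passed and not of all divergent lncRNAs.

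**Figure D3:**
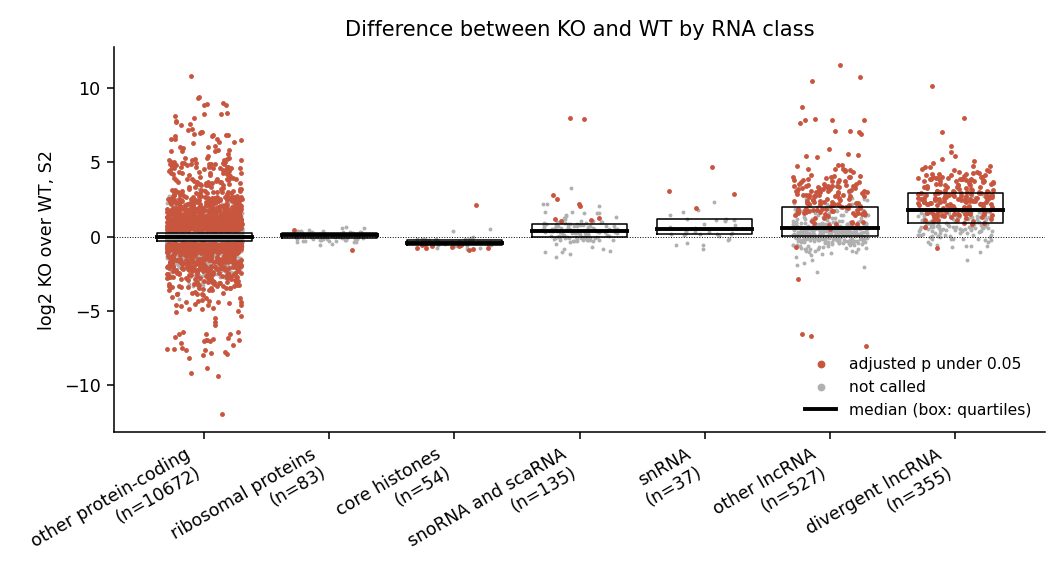
Log2 difference between KO and WT in S2 for each tested gene by RNA class, with red points for called genes, gray points for the rest, thick lines for medians and boxes for quartiles. The median lies at 1.78 for divergent lncRNAs, 0.60 for other lncRNAs and -0.41 for core histones, and points beyond about 8 include genes without a count in 1 genotype, whose fitted size is no bound.

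Gm37305 starts 491 bases from Ccnl1, a cyclin that acts in splicing, and was at 4.68, 4.67, 42.1 and 42.9 CPM (log2 3.18 ± 0.15, adjusted p = 1.5e-05). 5031425E22Rik, 172 bases from the methyltransferase gene Kmt2e, was at 9.64, 9.34, 52.5 and 58.4 CPM (log2 2.54 ± 0.14). B230322F03Rik starts 937 bases from Nudt19 and was at 1.23, 1.56, 22.7 and 19.6 CPM. The samples of a genotype lay close together in all of these. Gm37305 and B230322F03Rik overlap their coding partners on the other strand, and the strand setting of the counting is not given in the sources used here, so reads of such pairs may not be told apart. Gm9484, 325 bases from the kinase gene Bmp2k, was at 0.473, 0.373, 13.4 and 10.7 CPM, and Bmp2k itself rose from 132 and 132 to 255 and 219 CPM. Ccnl1 was not called (153, 170, 138 and 126 CPM). Of the 196 tested coding partners of the 203 divergent lncRNAs that rose, 18 rose and 5 fell, with a median of -0.04. Both shares were below the 10.3% and 4.80% of all tested genes, which include lncRNAs. Of the 10809 coding genes tested, 888 were higher and 639 lower. Against these, the share of partners that rose was near that of coding genes, and the share that fell was below it.

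A pair of windows shows how close such starts lie. Each is the RefSeq promoter window of the coding gene on GRCm38.p6, with capitals from the annotated start of the lncRNA to that of the coding gene. The window of Cgrrf1, a ring-finger gene, is chr14:46831884-46832183 on the plus strand, with Gm10101 98 bases away on the other strand. That of U2surp, a splicing factor gene, is chr9:95511947-95512246 on the minus strand, with Gm28424 155 bases away on the other strand.
Cgrrf1: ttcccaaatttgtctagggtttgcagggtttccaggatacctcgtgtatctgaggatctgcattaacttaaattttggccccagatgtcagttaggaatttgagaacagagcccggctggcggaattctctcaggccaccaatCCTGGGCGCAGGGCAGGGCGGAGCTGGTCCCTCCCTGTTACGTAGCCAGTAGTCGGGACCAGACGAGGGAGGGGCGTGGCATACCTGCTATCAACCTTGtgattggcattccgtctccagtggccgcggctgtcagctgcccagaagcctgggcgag
U2surp: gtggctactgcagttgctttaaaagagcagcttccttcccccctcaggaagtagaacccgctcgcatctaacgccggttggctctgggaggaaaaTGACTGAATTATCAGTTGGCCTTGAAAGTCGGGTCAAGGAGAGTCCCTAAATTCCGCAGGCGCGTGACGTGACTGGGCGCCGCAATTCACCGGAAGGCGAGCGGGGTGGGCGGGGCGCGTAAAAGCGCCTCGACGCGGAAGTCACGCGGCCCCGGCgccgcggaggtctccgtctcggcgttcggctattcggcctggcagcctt
Gm10101 was at 1.37, 1.68, 25.8 and 21.3 CPM (log2 3.99 ± 0.23, adjusted p = 3.4e-05), while Cgrrf1 was at 5.80, 5.04, 5.65 and 5.27 CPM. Gm28424 was at 0.552, 0.373, 8.50 and 11.4 CPM (log2 4.31 ± 0.33, adjusted p = 1.3e-04), while U2surp was at 184, 176, 163 and 152 CPM. The lncRNA side rose and the coding side was not called at both. Of the 203 divergent lncRNAs that rose 107 had a window of their own in the RefSeq table, and these held a median of 28 CG dinucleotides per 300 bases, as did those of the 97 matched among the divergent lncRNAs that did not rise. The median was 10 for the 201 matched other lncRNAs 21 for the matched coding genes tested and 7 over all 27025 genes with a window. The motif TATAAA, on either strand, stood in 6.54% of the 107, in 7.22% of the 97, in 16.4% of the 201, in 7.96% of the 8595 matched coding genes tested and in 15.7% of all.

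Of the lncRNAs without a coding partner, 2900052L18Rik was at 0.499, 0.622, 60.6 and 70.6 CPM (log2 6.91 ± 0.22, adjusted p = 3.7e-06). Gm13067 had no count in WT and 13.9 and 17.4 CPM in KO, at least 266-fold higher. 5830418P13Rik had 2 counts in WT and 17.4 and 17.9 CPM in KO, a ratio of 474 with a 95% counting interval of 131 to 3918. 4932422M17Rik was at 0.394, 0.436, 9.38 and 9.93 CPM. These were all silent or nearly so in WT. The lncRNAs that fell and met the naming rule were 4933431E20Rik (25.3, 24.8, 15.8 and 14.1 CPM) and Ifi30 (36.9, 37.2, 24.1 and 20.4 CPM), a lysosomal gene that the annotation counts as non-coding. Of 12 well-known nuclear lncRNAs 5 rose and none fell. Malat1, an RNA of nuclear speckles, was at 1729, 2053, 5063 and 6448 CPM (log2 1.61 ± 0.18, adjusted p = 8.1e-04), Pvt1, a neighbour of Myc, at 18.3, 19.9, 53.2 and 68.0 CPM, and the imprinted antisense RNA Kcnq1ot1 at 570, 712, 1160 and 1251 CPM. Neat1, the scaffold of paraspeckles, was at 32.2, 60.4, 91.3 and 182 CPM (log2 1.57 ± 0.36, adjusted p = 0.0217). Its groups did not overlap, but replicates of a genotype lay far apart. Some of these RNAs also went up with stage in WT, scaled over all fractions. From S2 to S3 Malat1 went from 1733 and 2048 to 8474 and 8138 CPM and Neat1 from 32.3 and 60.3 to 226 and 206 CPM. Pvt1 went down, from 18.4 and 19.9 to 7.71 and 8.43 CPM, and Kcnq1ot1 did not go up. The part of stage in these rises was not tested.

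Primary transcripts of microRNAs were among the RNAs that rose. In red cells the Mir144 and Mir451a hairpins lie on a shared transcript, and miR-451a is cut by Argonaute 2 without Dicer. Counts on these genes come from reads of total RNA over the hairpin and do not measure the mature microRNA. The hairpins lie 99 bases apart, at chr11:78073005-78073070 and chr11:78073170-78073241 of GRCm38.p6 on the plus strand. Mature sequences of the microRNAs within the transcripts that rose are shown with the seed, bases 2 to 8, in capitals, from RefSeq.
mmu-miR-144-3p: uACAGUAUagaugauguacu
mmu-miR-451a: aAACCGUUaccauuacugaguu
mmu-miR-142a-3p: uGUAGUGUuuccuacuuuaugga
mmu-miR-22-3p: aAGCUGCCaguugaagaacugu
mmu-miR-29b-3p: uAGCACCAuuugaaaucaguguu
mmu-miR-29c-3p: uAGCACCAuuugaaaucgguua
The last pair shares a seed and is hosted by A330023F24Rik, and the others each have their own. Mir144 was at 0.657, 0.311, 23.1 and 44.6 CPM (log2 5.93 ± 0.43, adjusted p = 9.8e-05) and Mir451a at 0.289, 0.187, 16.8 and 27.8 CPM (log2 6.39 ± 0.39, adjusted p = 4.4e-05). Both rose together in both KO samples, and a hairpin on the opposite strand, Mir451b, overlaps Mir451a. Mir142hg, the host of miR-142, was at 3.91, 3.36, 56.9 and 68.7 CPM (log2 4.08 ± 0.18), A330023F24Rik at 3.57, 3.67, 41.8 and 41.4 CPM (log2 3.52 ± 0.16) and Mir22hg, the host of miR-22, at 0.867, 0.747, 5.44 and 6.39 CPM (log2 2.83 ± 0.32). These genes were named for what they host after their values were seen. In WT, scaled over all fractions, Mir144 went from 0.658 and 0.310 CPM in S2 to 5.09 and 6.10 CPM in S3. Mir451a, Mir142hg and Mir22hg also went up with stage in WT, and A330023F24Rik did not. The part of stage in the rises in KO was not tested. Among genes annotated as microRNAs as a class, the share that rose was near the 10.3% of all tested genes called higher. Of 36 genes annotated as microRNAs 3 rose and none fell, against 12 and 2 without KO replicate 2, 12 and 1 without the summed KO sample, and 2 and 0 when either WT sample was left out.

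Among short stable RNAs, 10 of 135 small nucleolar and Cajal body RNAs rose and none fell, against 21 and 4 without KO replicate 2, 46 and 3 without the summed KO sample, and 3 and 0 without the summed WT sample. Of 37 small nuclear RNAs 4 rose and none fell, against 8 and 2 without KO replicate 2 and 11 and 1 without the summed KO sample. Snord118, the U8 RNA, was at 0.315, 0.249, 1.5 and 1.11 CPM and Rnu1b1, a U1 RNA gene, at 0.341, 0.249, 2.81 and 1.52 CPM. Such genes have many near-identical copies. For neither class was the share that rose clearly above the 10.3% of all tested genes called higher. Small nucleolar and Cajal body RNAs summed to 331, 456, 418 and 677 CPM, with the summed KO sample between the WT samples. Terc, the RNA of telomerase, was at 22.0, 23.4, 43.9 and 60.9 CPM (log2 1.2 ± 0.18, adjusted p = 0.00288). Rpph1, the RNA of RNase P, and Rmrp, that of RNase MRP, were not called. They were at 2535, 2567, 1921 and 4332 CPM and at 1026, 1435, 896 and 2141 CPM, with the KO samples on both sides of WT. Of 15 host genes of snoRNAs 2 rose, Snhg20 (8.69, 8.53, 51.6 and 53.7 CPM) and Snhg15 (12.6, 12.1, 36.8 and 30.1 CPM). The median of the 15 was 0.14, and the share that rose was also not clearly above 10.3%. CT010467.1, annotated as ribosomal RNA on the locus of Gm42418, was at 160, 227, 619 and 1650 CPM (log2 2.55 ± 0.41). Gm26917 and Gm42418 themselves were not called (adjusted p = 0.20 and 0.26).

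Markers of macrophages were lower in KO. Of 16 tested, of 18 listed, 13 fell and none rose (9 fell when either WT sample was left out), their sum going from 39.6 and 45.8 CPM in WT to 7.09 and 6.39 CPM in KO. Csf1r, the receptor that defines the lineage, was at 5.65, 8.53, 0.245 and 0.101 CPM, and Cd5l had no count in KO, at least 31.2-fold lower. Adgre1 (F4/80) was at 1.92, 3.55, 0.122 and 0 CPM. Of 11 granulocyte markers 5 fell (3 without the summed WT sample), with a sum of 188, 121, 22.3 and 41.9 CPM over the list. Elane was at 8.48, 5.66, 0.489 and 1.72 CPM and Prtn3 at 19.8, 16.5, 1.93 and 6.28 CPM. Lymphoid markers summed to 1.65, 1.93, 0.245 and 0.203 CPM, lower in KO, but none passed the filter on low counts. Hepatocyte markers summed to 9.59 to 14.7 CPM in the 4 samples, so the markers of both had few counts. Of 7 mast cell markers 2 fell, Kit and Hdc, of 7 endothelial markers 1 rose and 2 fell, and of 8 megakaryocyte markers 1 rose, Itga2b. Of 4 stellate and mesenchymal markers tested 2 rose, Reln (3.28, 3.49, 21.3 and 27.9 CPM) and Col1a2 (0.368, 0.249, 6.51 and 8.82 CPM). Of the 13 listed, 10 were under 1 CPM in all 4 samples. Reln also went up with stage in WT, from 0.974 and 1.08 CPM in S1 to 99.7 and 79.9 CPM in S3, scaled over all fractions. The part of these non-erythroid cells in the fall of the interferon-stimulated and progenitor genes, and in the stage index, was not tested.

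The effect in S2 was compared with that in S1, the fraction before it, by an interaction test over 14770 genes. It called 4 genes with a more positive difference in S2 (0.0271%) and 1 with a more negative one (0.00677%), 0.0339% in all, and 1669 had an unadjusted p under 0.05. Within S1 itself 40.1% of genes were called between genotypes. Slc4a1 was the negative one. Its KO effect was 1.48 in S1 and 0.45 in S2, a difference of -1.04 (adjusted p = 0.0438). Tspoap1 fell in S1 (-1.2) and rose in S2 (1.03). Tnrc18 likewise fell by 0.97 in S1 and rose by 0.61 in S2. Mtm1, a lipid phosphatase gene, rose by 0.75 in S1 and by 2.48 in S2, and Zfp385a, a zinc finger gene, by 0.85 and 2.39. Leaving out KO replicate 2 of S2 gave 53 and 28 such genes and leaving out its summed KO sample 2933 in all. Leaving out either WT S2 sample, either KO S1 sample or the summed WT S1 sample gave 0. The median effect on divergent lncRNAs was 1.97 in S1, 1.78 in S2 and 0.90 in S3. These medians are over the 383, 355 and 283 that passed the filter in each fraction, so the sets differ.

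Against S3, the fraction after it, 224 of 14405 genes had a more positive difference in S2 (1.56%) and 157 a more negative one (1.09%), 2.64% in all, and 32.1% of genes were called between genotypes within S3. Leaving out a sample gave between 109 genes in all, without the summed WT S2 sample, and 2481, without the summed KO S2 sample. Divergent lncRNAs accounted for 21 of the more positive differences and none of the more negative ones. Their interaction values had a median of 0.79, against -0.01 over all genes. Alas2, higher in KO S2 by 1.40, did not differ in S3 beyond its error (0.08), and the difference between the fractions was called (adjusted p = 0.00300). Slc25a37 had the same order, with 1.19 in S2 and 0.07 in S3 (adjusted p = 0.00636). The p53 target Trp53inp1 rose by 5.17 in S2 and by 2.84 in S3. Slc2a3, a glucose transporter gene, rose by 2.61 in S3 and was not called in S2 (-0.06). Csf2rb, a cytokine receptor chain, differed by 1.2 in S2 and 4.22 in S3, Trove2, an RNA-binding Ro protein, by -0.47 and 2.82, Apol11b by 4.61 and 1.27 and Prr15l by 5.79 and 2.12.

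**Figure D4:**
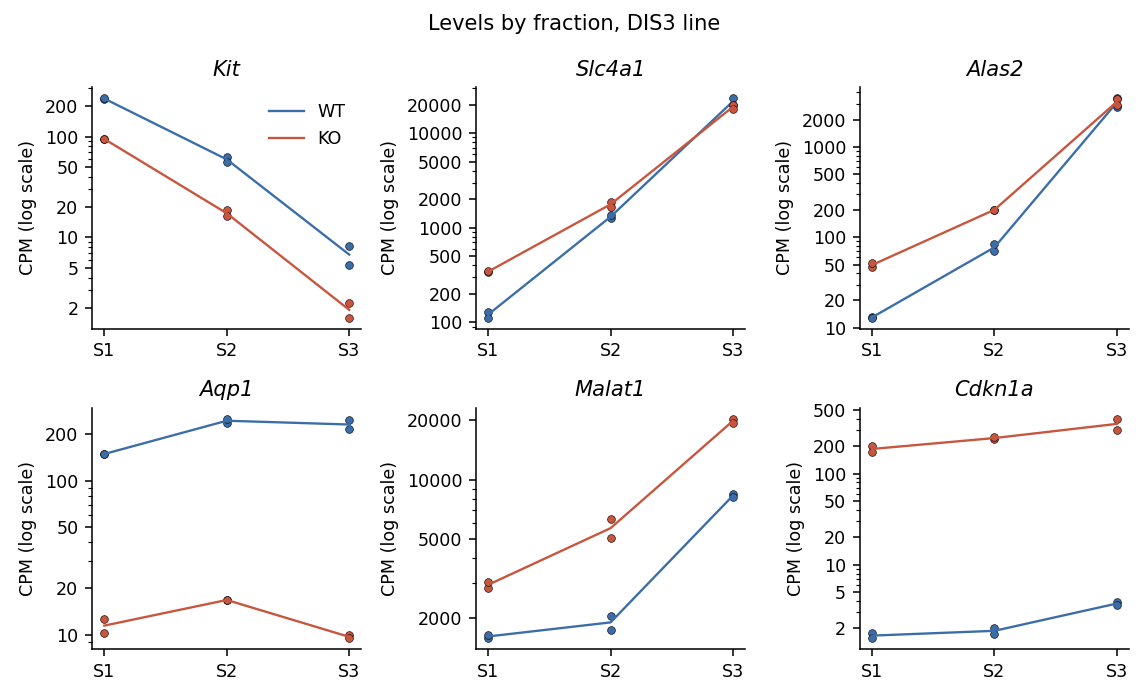
CPM on log axes of 6 genes in S1, S2 and S3 of the DIS3 line, scaled over all fractions, with 1 point per sample and lines through the means, blue for WT and red for KO. Kit and Aqp1 lie lower and Cdkn1a and Malat1 higher in KO in each fraction, while the genotypes lie apart in S1 and overlap in S3 for Alas2.

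Against EXOSC10 loss in the same fraction, 253 of 14028 genes differed more positively in the DIS3 line (1.80%) and 58 more negatively (0.413%), 2.22% in all, and 21.4% of genes were called between EXOSC10 genotypes. Among lncRNAs the counts were 111 and 1 of 806, and among divergent ones 59 and 0 of 314. Without KO replicate 2 of the DIS3 line 377 and 126 genes were called, and 62 in all without the summed WT sample. The median effect was 1.78 over the 355 divergent lncRNAs tested with DIS3 loss and 0.08 over the 206 tested with EXOSC10 loss. These sets differ, as RNAs could pass the filter through high values in DIS3 KO samples alone. Of the 205 tested in both lines 137 were above 1 on the log2 scale with DIS3 loss and 20 with EXOSC10 loss. Gm10101 was at 1.2, 2.23, 1.07 and 0.413 CPM in the EXOSC10 line and its effects differed by 5.34 ± 0.53 (adjusted p = 5.4e-04). Mir451a was at 0.375, 0.255, 0 and 0.661 CPM there and differed by 6.10 (adjusted p = 0.0208). Mir142hg was at 6.52, 5.80, 5.27 and 7.02 CPM and differed by 4.07 ± 0.26 (adjusted p = 1.1e-04). In the EXOSC10 line the KO values of Mir451a and Mir142hg lay on both sides of WT, and Gm10101 was not called (adjusted p = 0.15).

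**Figure D5:**
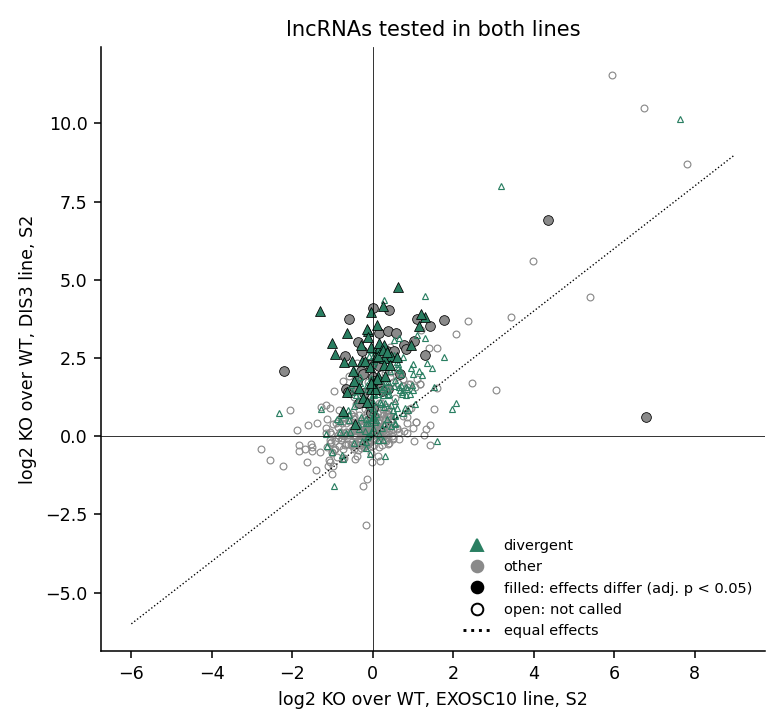
Log2 KO over WT in S2 of the DIS3 line against that of the EXOSC10 line for the 560 lncRNAs tested in both, with triangles for divergent and circles for other lncRNAs, filled where the effects differed and the dotted line for equal effects. Most divergent lncRNAs lie above the line, with a median near 0 on the horizontal axis.

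Of 10950 coding genes 93 differed more positively and 44 more negatively. Dis3 itself was at 66.9, 71.5, 85.9 and 84.8 CPM in the EXOSC10 line, and its effects differed by -1.02 ± 0.16 (adjusted p = 0.00868). Exosc10 was at 74.5, 66.7, 38.5 and 33.6 CPM there. Cdkn1a rose with EXOSC10 loss from 4.2 and 2.59 to 144 and 163 CPM, less than with DIS3 loss by 1.43 ± 0.26 (adjusted p = 0.0210), and Phlda3 differed by 1.81 ± 0.19. Aqp1 fell alike, by 3.80 on the log2 scale, and the difference of -0.04 was not called (adjusted p = 0.91). Slc15a2, a peptide transporter gene, fell with DIS3 loss (7.49, 8.40, 1.01 and 0.507 CPM) and rose with EXOSC10 loss (6.07, 5.33, 14.3 and 13.1 CPM). Kcp was at 7.70, 10.2, 16.7 and 29.2 CPM in the DIS3 line and at 0.375, 0.511, 15.6 and 26.2 CPM in the EXOSC10 line. B430305J03Rik rose more with DIS3 loss by 4.32 ± 0.63. Kdm5d and Uty were also called, at or near 0 in EXOSC10 samples of both genotypes.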

How the data were processed

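Gene-level read counts were deposited by the authors, 1 table per library, as whole numbers that were not normalized. The submitters' processing notes name GRCm38 and the tools DESeq2 1.20.0, R 3.5.1, HISAT2 2.1.0 and featureCounts 1.6.4. The strand setting and the annotation release are not given in the sources used here. Of 49585 gene IDs, 49326 were found in GENCODE release M21, which gave symbols, biotypes and positions. Libraries of a group were summed where their chi-square per degree of freedom, over genes with at least 20 counts, was under 1.5. For KO against WT, edgeR 4.0.16 (R 4.3.3) was run in its quasi-likelihood form with TMM scaling, its default filter on low counts and Benjamini-Hochberg adjustment over all tested genes. Only the 4 S2 samples entered the main comparison. Differences between fractions or lines were tested as interactions over 8 samples. The test was run on simulated data first.

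Genes named were Dis3, Exosc10, Tfrc and Slc4a1, the 12 coding genes and 6 lncRNAs with the largest rises and the 12 and 3 with the largest falls among called genes with a mean of at least 5 CPM, up to 4 members of each list by adjusted p with further members for their role, and 5 genes per interaction. Some genes that met the rule are not reported here. The libraries and gene lists were chosen with earlier results of these data known. Alternatives were DESeq2 1.42.0, RLE scaling, other filters, a replicate block, a joint fit and leaving out each sample. Counting intervals and floors cover counting error only.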

Additional observations from a re-analysis of the deposited data

Results flagged for a closer look

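Between S2 and S1 of the DIS3 line the interaction test of edgeR called a difference for these named genes, each given with the log2 effect in S2 minus that in S1. It was positive for Mtm1 (1.73), Tnrc18 (1.56), Tspoap1 (2.19) and Zfp385a (1.55). It was negative for Slc4a1 (-1.04).

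Between S2 and S3 of the DIS3 line the interaction test of edgeR called a difference for these named genes, each given with the log2 effect in S2 minus that in S3. It was positive for 5031425E22Rik (1.77), Alas2 (1.30), Apol11b (3.36), B230322F03Rik (2.03), Bbc3 (1.67), Btg2 (0.70), Gm10101 (1.69), Gm37305 (1.66), Gm9484 (1.76), Gtse1 (1.01), Hba-a1 (2.33) and Hbb-bs (1.14). Further positive values were those of Hist2h2be (1.81), Mir142hg (1.29), Mir144 (2.34), Mpp1 (1.01), Pidd1 (0.78), Polk (1.19), Prr15l (3.64), Psrc1 (0.77), Slc25a37 (1.11), Snhg20 (1.23), Tnrc18 (0.77) and Trib3 (2.20). Further positive values were those of Trp53inp1 (2.31) and Ube2c (0.97). It was negative for Atp8b4 (-2.83), Bnip3 (-1.41), Ccnd2 (-0.94), Csf2rb (-3.05), Ftl1 (-0.83), Hdc (-2.22), Mpo (-2.03), Slc2a3 (-2.69), Trove2 (-3.31) and Trp53 (-0.65).

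Between DIS3 loss and EXOSC10 loss in S2 the interaction test of edgeR called a difference for these named genes, each given with the log2 effect of DIS3 loss minus that of EXOSC10 loss. It was positive for 2900052L18Rik (2.56), 4932422M17Rik (4.92), 5031425E22Rik (2.47), A330023F24Rik (2.1), B230322F03Rik (4.0), B430305J03Rik (4.32), Cdkn1a (1.43), Exosc10 (1.11), Gm10101 (5.34), Gm28424 (4.66), Gm37305 (3.32) and Gm9484 (4.12). Further positive values were those of Gpx3 (1.12), Hist2h2be (2.60), Kcnq1ot1 (0.92), Mir142hg (4.07), Mir144 (5.62), Mir451a (6.10), Neat1 (2.05), Phlda3 (1.81), Snhg15 (1.23), Snhg20 (1.32) and Xist (1.76). It was negative for Dis3 (-1.02), Kcp (-4.13), Kdm5d (-16.87), Mid1 (-2.95), Rsad2 (-4.0), Slc15a2 (-4.46), Slc2a1 (-0.85) and Uty (-7.47). The values of Kdm5d and Uty are fitted against samples at or near 0 and are no bound.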

How the results depend on the processing

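The count of 2118 genes called in S2 was 4297 with every library as its own sample, 1034 with a mean CPM of at least 5 and 4287 in the joint fit of all sorted DIS3 samples (1788 higher, 2499 lower). Leaving out 1 sample at a time gave 872 to 5898. It stayed within 1.5 times with RLE scaling, DESeq2, no low-count filter or Gm26917 and Gm42418 left out. The replicate block gave 3392 calls, but the numbers pair no samples by their labels, and the deviations of replicate 2 in KO and WT correlated with r = 0.07 over 14035 genes. Dis3 ranged from -0.90 to -0.61 with 1 sample left out and was not called without the summed WT sample (-0.68). Without the low-count filter the interactions called 441 genes against S1, 825 against S3 and 932 against EXOSC10. With 1 sample left out they ranged from 0 to 2933, 109 to 2481 and 62 to 2791. Of 157 named genes tested, 138 were called, none of these changed direction under the alternatives run, and 90 held their call in all of them. Genes not called changed sign. Cgrrf1 was at -0.02 with DESeq2, -0.02 with no low-count filter, -0.12 in the joint fit and from -0.09 to 0.12 with 1 sample left out. With 1 sample left out, Rmrp ranged from -0.47 to 0.81, Rpph1 from -0.42 to 0.77, Gm42418 from -0.05 to 1.14, Gm26917 from -0.00 to 1.58, Slc2a3 from -0.14 to 0.01, Hbb-bt from -0.94 to 0.93 and Klf1 from -0.26 to 0.13. Exosc10 was at -0.00 in the joint fit. The cause of these changes was not tested. With 2 samples per genotype, fits that leave out a sample assume that the lone sample varies like the other genotype's.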
